A study of Mus musculus with 6 samples.

Results

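The proteins of the cytosolic ribosome were followed at the RNA level in microglia from mice with acute ischemic stroke (AIS). A gene was taken when its RefSeq symbol was Rpsa, Rplp0, Rplp1 or Rplp2, or was Rpl or Rps followed by a number, with Rps6k kinase genes and -ps pseudogenes left out. The rule used names alone and no measured value. It took 89 genes with 156 probes, of 23462 genes with a probe on the array. Another 6 symbols that met the rule (Rpl32p, Rpl6l, Rps12l1, Rps27rt, Rps3a2 and Rps3a3) had no probe. Levels could be tested for 86 of the 89 genes, with 138 probes. Of these genes, 34 had an Rps symbol or were Rpsa, and 52 had an Rpl or Rplp symbol. The muscle paralog Rpl3l stood well above background on no array, and Rps21 and Rpl23 kept too few unmarked spots. The rule also took a few genes that are not ribosomal subunits: Rps19bp1, which encodes a binding partner of Rps19, Rps23rg1, the noncoding Rps4l, and the retrotransposed copies Rpl32l and Rpl37rt.

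The cytosolic ribosome is made of a small subunit, which reads the messenger RNA, and a large subunit, which joins the amino acids. Proteins of the small subunit carry Rps symbols and those of the large subunit Rpl symbols, while Rplp0, Rplp1 and Rplp2 form the stalk that recruits elongation factors. Their mRNAs are among the most abundant of most cells and usually begin with a run of pyrimidines, the 5′ terminal oligopyrimidine (TOP) motif, through which mTOR signalling and the RNA-binding protein Larp1 set their translation. PGC-1α (gene Ppargc1a) coactivates transcription and is best known for driving mitochondrial biogenesis, not cytosolic ribosomes.

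The control group was PGC-1α f/f mice, which carry a loxP-flanked PGC-1α allele with an eGFP gene. The mPGC-1α group were their littermates that also carry a tamoxifen-inducible Cre recombinase under the Cx3cr1 promoter, which the study built to overexpress PGC-1α in microglia. All mice were described as male, of C57BL/6 background and 10 weeks old. According to the methods, both genotypes received tamoxifen before transient middle cerebral artery occlusion, the model of AIS. Microglia were taken with a magnetic kit for the surface receptor P2RY12, and each group has 3 samples with 1 array each. Whether a sample came from 1 animal or from a pool, and how long after stroke it was taken, are not given in the sources used here. The p-values therefore measure only the spread between these samples. The Cx3cr1 promoter is also active in monocytes and macrophages. The study left an interval between tamoxifen and the experiments, which by its account restricts the overexpression to microglia and spares macrophages.

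The letters around the transcription start show which of these genes carry a pyrimidine run on the DNA strand of the RNA. RefSeq start sites (GRCm38.p6) were at hand for 68 of the 89 genes. A run of at least 9 C or T letters that touched the stretch from 5 bases before to 10 bases after the start was found for 27 of the 68 (39.7%), against 9.20% of 27025 genes with a promoter of the same length. The letters CTTCCG, or CGGAAG on the other strand, stood between 250 bases before and 50 bases after the start in 44 of the 68 (64.7%), against 18.8% of all genes. CTTCCG and a pyrimidine run can overlap, since CTTCC is made of pyrimidines. Windows of 65 bases, from 45 before to 20 after the start, are shown for Rps18, the gene with the smallest p in the comparison, for Rps6, the substrate of S6 kinase, for the stalk gene Rplp2, and for the parent and paralog genes Rps27, Rps27l and Rpl22l1. The pyrimidine run is in capitals.
Rps18, chr17:33955646-33955710, minus strand: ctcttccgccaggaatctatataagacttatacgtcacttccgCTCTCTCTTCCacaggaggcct
Rps6, chr4:86857348-86857412, minus strand: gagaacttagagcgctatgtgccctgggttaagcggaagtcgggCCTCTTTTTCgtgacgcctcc
Rplp2, chr7:141447606-141447670, plus strand: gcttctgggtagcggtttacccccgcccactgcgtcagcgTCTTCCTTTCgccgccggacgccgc
Rps27, chr3:90213629-90213693, minus strand: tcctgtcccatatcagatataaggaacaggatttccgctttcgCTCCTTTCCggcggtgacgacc
Rps27l, chr9:66946041-66946105, plus strand: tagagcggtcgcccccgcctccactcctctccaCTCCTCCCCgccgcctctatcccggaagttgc
Rpl22l1, chr3:28805463-28805527, plus strand: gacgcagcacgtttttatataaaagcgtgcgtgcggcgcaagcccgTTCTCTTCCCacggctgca
In Rps18, Rps6 and Rplp2 the run covers the first transcribed base, whereas in Rps27l it ends before the start. A match describes letters and not a working site, and a gene without a run at this annotated start may begin at another base.

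Levels are log2 processed signals relative to each array's 75th percentile, so 0 is the percentile itself and 1 unit is a 2-fold change. Differences are mPGC-1α minus control on that scale. The 75th percentile lay between 927 and 1540 intensity units, 71.0% to 86.5% of spots were well above background and none was saturated. Arrays 1 and 2 of each group shared one slide and both arrays 3 the other. The targeted gene Ppargc1a read -1.44, -0.94 and -0.93 in the controls and -1.49, -1.27 and -1.54 in mPGC-1α (difference -0.33, SE 0.24, adjusted p = 0.817, limma), so this probe did not show a higher level in the mPGC-1α group. Whether the probe reads the transgene is not known here. In other samples, the study reported higher PGC-1α in mPGC-1α microglia, by qRT-PCR of primary cultures and by immunostaining of brain sections. Control array 2 stood apart in sex-linked genes: Xist read -5.21 there and between -0.97 and -0.51 on the other 5 arrays, and of 7 probes for 4 Y-linked genes (Uty, Kdm5d, Ddx3y and Eif2s3y) 6 exceeded background clearly on that array, against 1 or 2 elsewhere. All 6 samples are labelled male. The readings of control array 2 go with that label, and those of the other 5 arrays, all mPGC-1α arrays among them, go against it. The cause was not tested. Because control array 2 differed from the rest in this, results for the ribosomal protein genes as a group are given with and without it.

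Ribosomal protein genes were hit by the scanner's outlier marks more than probes at large, and this decides which values exist. On control array 3, 42 of the 156 member probes (26.9%) had no unmarked spot, against 3.31% of all probes. On mPGC-1α array 3 the count was 67 (42.9%), against 5.66% of all probes. On the 4 arrays of the other slide it was between 5 and 10. As a result, 33 of the 86 tested genes lacked a value for the third mPGC-1α sample and 14 for the third control. All 6 values were present for 52 genes, and the statements by array below rest on those. Other bright probes lost values too. Of 1987 other tested probes with a mean level above 3, 1243 had all 6 values. It was 45 of 78 for ribosomal protein genes of that brightness and 36995 of 40745 for all tested probes.

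No cytosolic ribosomal protein gene differed between mPGC-1α and control microglia at an adjusted p below 0.05 (limma, Benjamini-Hochberg over 40745 probes). The smallest adjusted p was 0.705. The percentage of all tested probes called was 0. An unadjusted p below 0.05 was also reached by 0 of 86 genes, against 7.15% of all tested probes (2.3% higher and 4.85% lower). The groups overlapped in all 52 genes with 6 values, whereas 5.87% of all probes with 6 values lay wholly higher and 5.15% wholly lower. A change in every cell cannot be told apart here from a change in which cells were captured.

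The differences were small and mostly of one sign. The median over the 86 genes was 0.20, from -0.75 to 0.48, with quartiles of 0.13 and 0.25. The median standard error of a gene was 0.21, about as large as the median difference. The difference was above 0 for 81 of 86 genes, against 57.9% of all tested probes and 61.7% of the brightest probes of all genes. The median over all tested probes was 0.06. Genes with an Rps symbol or Rpsa had a median of 0.21 (34 genes) and those with an Rpl or Rplp symbol 0.19 (52 genes). Control samples spread more than mPGC-1α samples, with a median SD of 0.29 against 0.15 over the 86 genes. The same order held over all tested probes, at 0.37 against 0.25.

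Bright probes of other genes had nearly the same shift. Of the 86 genes, 78 had a mean level above 3, and all 78 had a difference above 0, with a median of 0.20. Among 1987 other tested probes of that brightness, 87.0% had a difference above 0 and the median was 0.19. On slide 1 the median difference of the ribosomal protein genes was 0.25, and on slide 2 it was 0.08 over the 52 genes measured there. The other bright probes gave 0.23 and 0.13, and all tested probes 0.05 and 0.07. On slide 2 there was 1 array of each group. Genes with a pyrimidine run at the start had a median of 0.19 (27 genes) and matched genes without one 0.21 (38 genes). Those with CTTCCG had 0.22 (42 genes) and those without 0.18 (23 genes).

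The genes varied together from array to array. Relative to each gene's mean over the 6 arrays, the median of the 52 genes was -0.39, 0.17 and -0.03 for control arrays 1 to 3. For the mPGC-1α arrays it was 0.02, 0.24 and 0.04. Control array 1 held the lowest value of 47 of the 52 genes (90.4%), against 27.0% of all probes with 6 values and 73.5% of the other bright probes. Array 2 of the mPGC-1α group held the highest value of 38 genes (73.1%), against 12.2% of all probes and 36.3% of the other bright probes. The other bright probes had medians of -0.36, 0.16 and -0.09 in the controls and 0.09, 0.19 and 0.04 in mPGC-1α, and all probes -0.13, 0.15 and -0.12 against 0.08, 0.04 and -0.07. In the authors' series matrix, which is normalized between arrays, the medians of 86 genes lay between -0.05 and 0.04 on all 6 arrays.

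**Figure D1:**
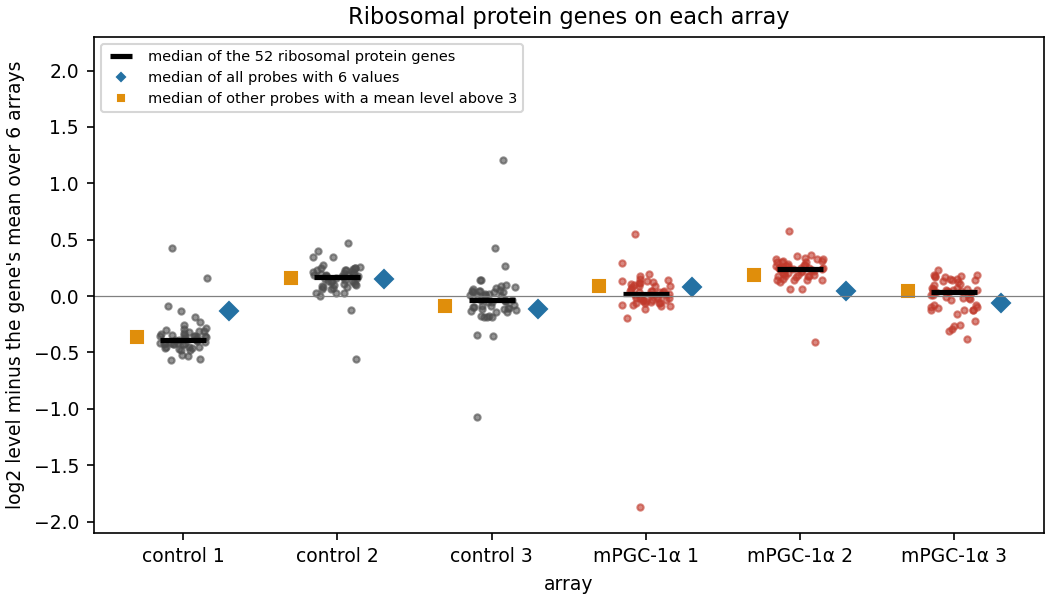
Each point is 1 of the 52 ribosomal protein genes with 6 values; the vertical axis is its log2 level minus its mean over the 6 arrays, and the horizontal axis is the array. Bars are the medians of these genes, diamonds those of all probes with 6 values and squares those of other probes with a mean level above 3. Control array 1 sits lowest, at a median of -0.39, and mPGC-1α array 2 highest, at 0.24.

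The common shift depended on the scaling and on single arrays. Without control array 1 the median difference of the ribosomal protein genes was 0.04, and 0.00 over all probes. Without mPGC-1α array 2 it was 0.11, and 0.03 over all probes. Under quantile normalization it was 0.03 while the median of all probes was 0.11, and after normexp background correction and quantile normalization it was 0.03 against 0.08. In the series matrix the median was 0.01, and 45 of 79 genes were above 0. There 3 genes lay wholly lower (Rpl8 by -0.11, Rpl28 by -0.07 and Rpl41 by -0.08; 3.67% of all probes) and 1 wholly higher (Rpl10a). When outlier-marked spots were kept, it was 0.19 and 83 of 88 genes were above 0. Without control array 2 it was 0.31, against 0.17 over all probes. In that subset 8 genes were higher and 1 lower at an unadjusted p below 0.05 among 77 tested (Rpl10a, Rps16 and Rps27l among the higher ones, Rpl7l1 lower; 10.1% of all probes higher, 11.2% lower). After adjustment 0 of the 77 were called, against 5.42% of all probes. Without overlap between groups were 22 of 56 genes with values on all 5 arrays, 21 of them higher, against 27.7% of all probes higher and 16.1% lower. Without mPGC-1α array 1 there were 14 such genes of 64, all higher, against 8.36% of all probes higher.

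**Figure D2:**
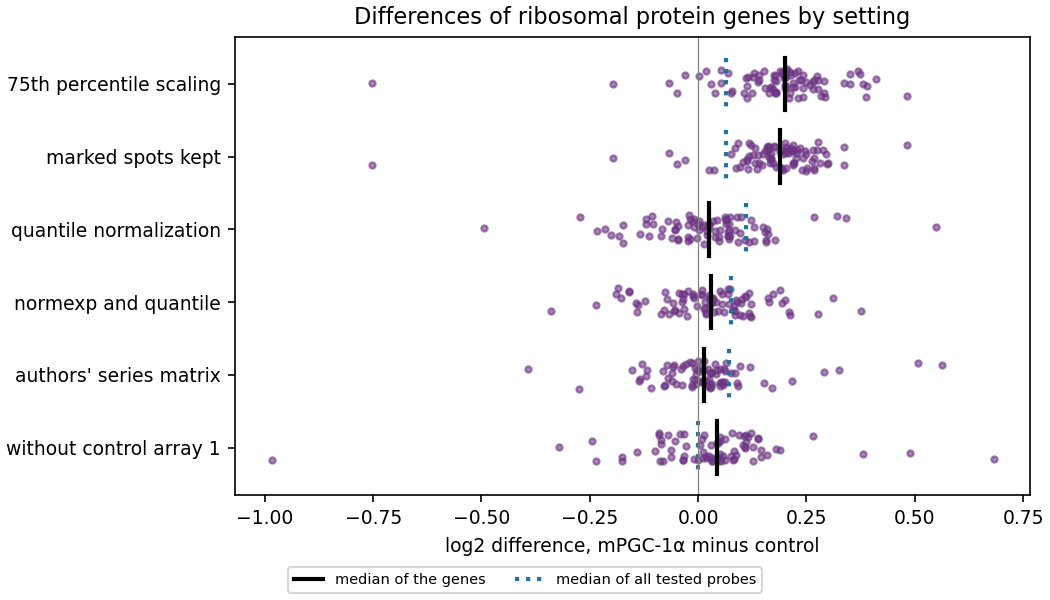
Points are the log2 differences, mPGC-1α minus control, of single ribosomal protein genes under 6 settings, which are the rows. Solid bars are their medians and dotted bars the medians of all tested probes; the solid bar lies at 0.20 under 75th percentile scaling and between 0.01 and 0.04 under both quantile settings, the series matrix and the set without control array 1.

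Rps18, a protein of the head of the small subunit, had the smallest p (probe A_51_P287677). Its level was 5.02, 5.01 and 5.22 on the control arrays and 5.47 and 5.52 on mPGC-1α arrays 1 and 2, while the spot on mPGC-1α array 3 was marked. Both measured mPGC-1α samples were above all controls, with means of 5.08 ± 0.12 (SD, n = 3) and 5.50 ± 0.04 (SD, n = 2). The difference was 0.41 (SE 0.18, unadjusted p = 0.0533, adjusted p = 0.705, limma). Blocking on the replicate number gave 0.48 (SE 0.19, adjusted p = 0.344, limma), and Rps18 was then the 1 gene of the 86 with an unadjusted p below 0.05, against 3.73% of all probes higher and 8.01% lower. No ribosomal protein gene passed the adjusted threshold in that fit, against 0.00245% of all probes. With marked spots kept, mPGC-1α array 3 read 5.16, inside the range of the controls, and the difference was 0.30. The other tested probes of Rps18 gave 0.26 and 0.15. In the series matrix the difference of the first probe was 0.06.

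Rpl10a, a large-subunit protein of the L1 stalk, had values on all arrays. It read 4.42, 4.80 and 4.60 in the controls and 4.79, 4.97 and 4.89 in mPGC-1α. Only control array 2 reached the mPGC-1α range, and the difference was 0.27 (SE 0.17, adjusted p = 0.787, limma). In the series matrix the groups of Rpl10a did not overlap, with a difference of 0.10, against 7.5% of probes wholly higher there. Rps16, a small-subunit protein, read 5.27, 5.81 and 5.56 in the controls and 5.77, 5.97 and 5.73 in mPGC-1α. The difference was 0.28 (SE 0.18, adjusted p = 0.801, limma), and -0.0019 in the series matrix.

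The remaining 5 of the 8 genes with the smallest p among higher ones lacked at least 1 array. Rpl13 read 4.16 and 4.59 in the controls and 4.69 and 4.84 in mPGC-1α (difference 0.39, SE 0.24). Rps20 read 4.02 and 4.42 in controls 1 and 3 and 4.47 and 4.74 in mPGC-1α arrays 1 and 2 (difference 0.39, SE 0.24). The marked spot of Rps20 on control array 2 read 4.91, above both mPGC-1α values. Rps12 read 4.66 and 5.25 in the controls and 5.26 and 5.41 in mPGC-1α (difference 0.37, SE 0.26). Rpl21 read 3.996 and 4.53 in the controls and 4.50 and 4.77 in mPGC-1α (difference 0.37, SE 0.26). In each of Rpl13, Rps12 and Rpl21 control array 1 was the lowest value and no array 3 was measured. Rpl36a read 3.01, 3.78 and 3.70 in the controls and 3.84 and 3.91 in mPGC-1α (difference 0.38, SE 0.26), with control array 1 far below the rest.

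The difference was below 0 for 5 genes, and in all of them the groups overlapped. The tested Rpl37 probe lay near background, at -6.67, -6.58 and -5.37 in the controls and -8.46, -6.01 and -6.42 in mPGC-1α (difference -0.75, SE 0.66, adjusted p = 0.849, limma). Leaving out mPGC-1α array 1 moved it to -0.01. Rpl7l1, a paralog of Rpl7, read 1.61, 0.63 and 1.61 in the controls and 1.15, 0.78 and 1.33 in mPGC-1α (difference -0.20, SE 0.30). Its lowest value was on control array 2, without which the difference was -0.52. Rps4l read 1.40, 2.05 and 1.40 against 1.63, 1.73 and 1.30 (difference -0.07, SE 0.24). Rps23rg1 read -1.96, -1.38 and -1.78 against -1.79, -1.59 and -1.89 (difference -0.05, SE 0.25). In both, the highest control value was that of array 2. Rps27a, which is made as a fusion with ubiquitin, read -3.61, -2.70 and -2.78 against -2.97, -2.91 and -3.31 on its tested probe (difference -0.03, SE 0.32). A brighter Rps27a probe had too few unmarked spots to be tested and read 4.19, 4.63 and 4.56 in the controls and 4.45 on mPGC-1α array 1.

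**Figure D3:**
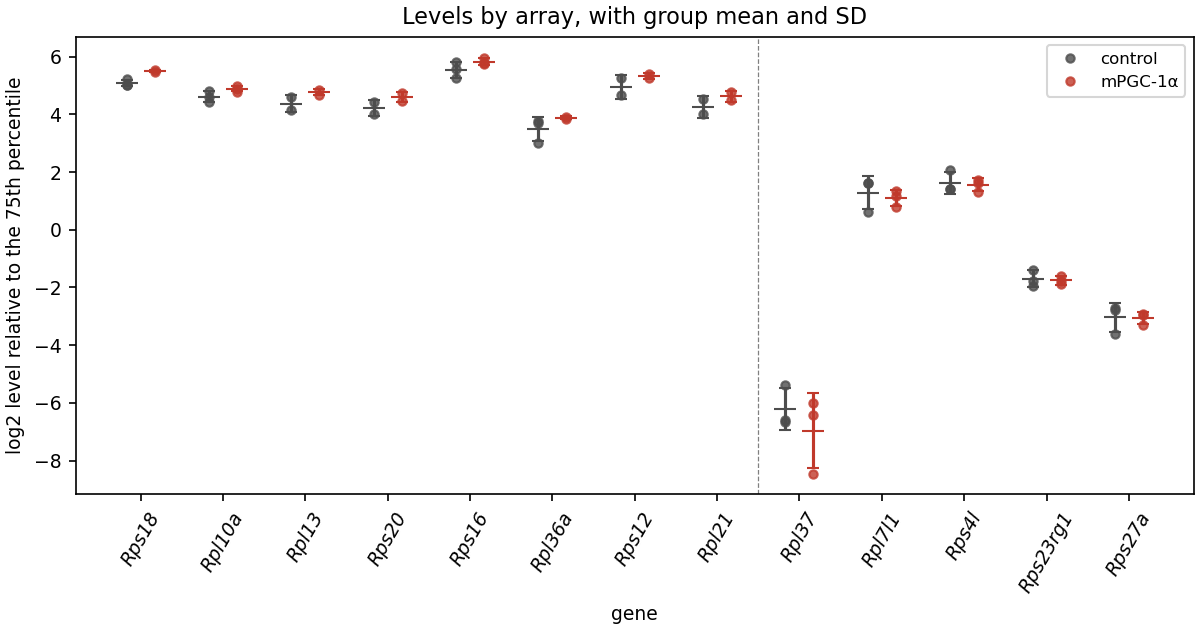
Points are the log2 levels relative to the 75th percentile (vertical axis) of single genes (horizontal axis) on each array, grey for control and red for mPGC-1α; horizontal bars are group means and error bars the SD over the 2 or 3 measured arrays. Left of the dashed line are the 8 genes with the smallest p among higher ones, Rps18 first; right of it are the 5 genes with a difference below 0. Group differences reach 0.41 on the left and -0.75, for Rpl37, on the right.

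Of the stalk, Rplp0 read 3.43, 3.56 and 3.78 in the controls and 3.60, 3.83 and 3.91 in mPGC-1α (difference 0.19, SE 0.18). Rplp1 read 5.06 and 5.43 against 5.29 and 5.41 (difference 0.11), and Rplp2 read 4.65, 5.35 and 4.95 against 5.17, 5.34 and 4.97 (difference 0.18). In all 3 the control and mPGC-1α ranges overlapped. Rpsa, also known as the laminin receptor precursor, read 3.94, 4.36 and 4.37 against 4.34, 4.50 and 4.49 (difference 0.22, SE 0.18). Rps6 read 4.67, 5.07 and 4.87 against 4.97, 5.23 and 5.05 (difference 0.21, SE 0.17). Control array 1 was the lowest of the 6 in each of Rplp0, Rplp2, Rpsa and Rps6. Rps19bp1, a nucleolar regulator of the deacetylase Sirt1, read -0.20, 0.01 and -0.41 against 0.22, -0.01 and -0.03 (difference 0.26, SE 0.21). Rpl5 and Rpl11, which bind the p53 ligase Mdm2 when ribosome assembly is disturbed, and Rps19, the gene most often mutated in Diamond-Blackfan anaemia, were picked for their roles after their values were seen. Rpl5 differed by 0.35 (SE 0.27), Rpl11 by 0.24 (SE 0.25) and Rps19 by 0.20 (SE 0.18).

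Paralogs were compared with their parent genes within each array, which removes shifts that both share. A ratio between different probes is no ratio of amounts, so only its difference between groups was read. Of 8 listed pairs 7 had both genes tested, and none differed at an adjusted p below 0.05 (exact two-sided permutation test over the arrays, Benjamini-Hochberg over 7 pairs). The smallest p the design allows is 0.1, or 0.333 where each group had 2 values. The Rpl36al to Rpl36a log2 ratio was 0.08, 0.28 and 0.02 in the controls and -0.25 and -0.20 in mPGC-1α (difference -0.35, exact permutation p = 0.1, adjusted p = 0.7). Here the groups did not overlap, but with marked spots kept mPGC-1α array 3 read 0.29, above every control, and the difference was -0.18 (exact permutation p = 0.4). Rpl36al itself read 3.09, 4.06 and 3.72 in the controls and 3.59 and 3.71 in mPGC-1α (difference 0.03, SE 0.29).

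Among the other pairs the p-values reached or exceeded 0.333 and no adjusted p was below 0.875. Rps27l, a p53-responsive paralog of Rps27, read 2.87, 3.83 and 3.07 in the controls and 3.62, 3.78 and 3.39 in mPGC-1α (difference 0.34, SE 0.26, and 0.62 without control array 2), and Rps27 read 5.01, 5.56 and 5.12 against 5.36 and 5.56 (difference 0.23). The difference of their log2 ratio was 0.21. Rpl22l1 read 0.96 and 1.62 against 1.33, 1.87 and 1.36 (difference 0.23, SE 0.29), and Rpl22, whose protein represses Rpl22l1, read 4.31, 4.80 and 4.74 against 4.68, 4.88 and 4.76 (difference 0.16). That ratio differed by 0.01. The Rpl39l to Rpl39 ratio differed by 0.28, and Rpl39l, a paralog best known from the testis, had the highest difference of the 86 genes, 0.48 (SE 0.40). Its levels were -4.07, -4.03 and -5.29 against -3.67, -4.16 and -4.12, so control array 3 alone lay far from the rest. Rpl39 read 4.12, 4.82 and 4.69 against 4.67, 4.88 and 4.69 (difference 0.20).

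Rpl7l1 to Rpl7 differed by -0.37 and Rps4l to Rps4x by -0.25. Rpl7 read 4.81, 5.34 and 5.07 against 5.11, 5.49 and 5.14 (difference 0.18), and the X-linked Rps4x 3.76 and 4.10 against 4.06 and 4.21 (difference 0.20). The ratio of Rpl10l to Rpl10 differed by 0.03. Rpl10l read 4.17 and 4.59 against 4.58 and 4.76 (difference 0.29), and Rpl10 4.76, 5.16 and 5.09 against 5.15 and 5.31 (difference 0.22). With marked spots kept, Rpl10l read 4.40 on control array 3 and 3.93 on mPGC-1α array 3, the latter below every control. Rpl10l is a near copy of Rpl10, and a probe of one may also bind the RNA of the other, as may probes of other members with close copies. For the pair without a test, Rpl3 read 4.32, 4.80 and 4.72 against 4.85 and 4.95 (difference 0.29).

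**Figure D4:**
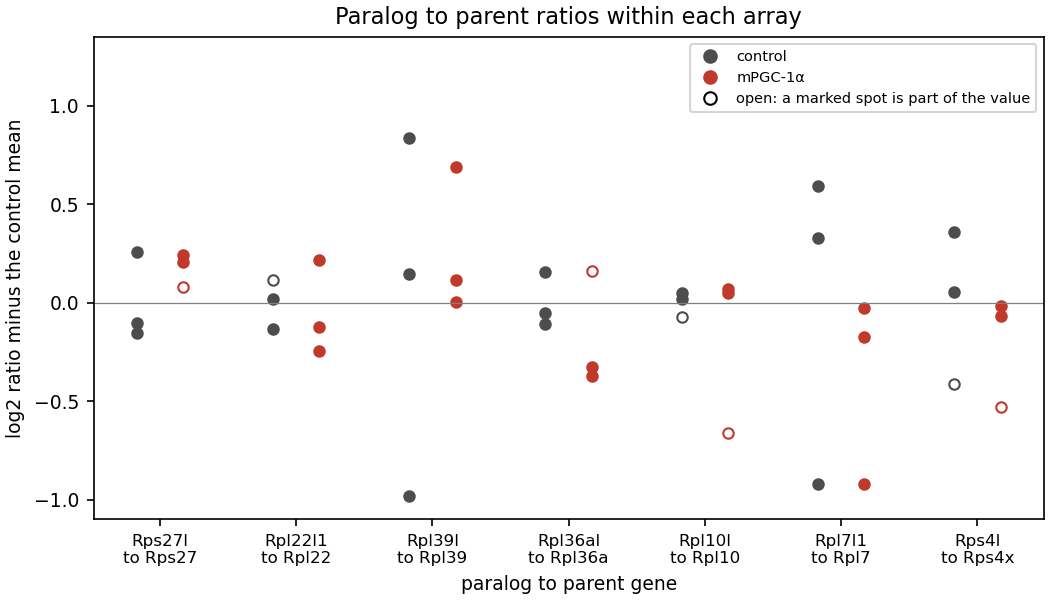
Points are log2 ratios of a paralog to its parent gene on each array minus the mean of the control arrays (vertical axis), for 7 pairs (horizontal axis), with outlier-marked spots kept. Open points hold a marked spot; for Rpl36al to Rpl36a the 2 filled mPGC-1α points lie below all controls and the open one lies above them, so the separation is lost once the marked spot is read.

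Probes of one gene mostly gave like differences. Of 42 genes with several tested probes, 5 had probes of opposite sign, and the median gap between the highest and the lowest probe was 0.14. The gap was largest for Rpl39 (0.98), where its dimmest probe read 3.32, 4.06 and 4.03 in the controls and 1.90 and 4.16 in mPGC-1α (difference -0.78, SE 0.57). The low mPGC-1α mean of this probe rests on array 1. For Rps27l a second probe differed by -0.11, for Rps15a the dimmest by -0.09, for Rpl27 a second by -0.17 and for Rps23rg1 a second by 0.11, against 0.34, 0.28, 0.11 and -0.05 for the brightest probes of these genes. The brightest probe of Rps15a read 4.49 and 5.14 in the controls and 4.97 and 5.21 in mPGC-1α, and that of Rpl27 read 3.82 and 4.16 against 3.96 and 4.25. The 52 dimmer member probes had a median of 0.20, with 48 above 0. Of the 29 of these probes with 6 values, 1 was without overlap between groups, against 11% of all probes with 6 values: a second Rpl35a probe read 4.07, 4.65 and 4.57 in the controls and 4.69, 4.84 and 4.67 in mPGC-1α (difference 0.30).

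Other genes of the ribosome and of its making were read from the same fit, and none had an adjusted p below 0.05. Fau and Rack1, ribosomal proteins whose symbols the rule does not take, had differences of 0.27 and 0.26. Fau read 4.74, 5.28 and 4.91 in the controls and 5.11, 5.40 and 5.23 in mPGC-1α, again with control array 1 lowest. Of 19 genes with TOP mRNAs or roles in elongation, 17 were tested, 14 had a difference above 0, and the median was 0.18. Of the brightest probes of all genes, 61.7% had a difference above 0. Among the 17, 1 gene was higher at an unadjusted p below 0.05, against 2.3% of all tested probes. This gene, Eif3a, a subunit of the initiation factor eIF3, read 1.64, 1.92 and 1.41 against 2.09, 2.10 and 2.16 (difference 0.46, SE 0.20, adjusted p = 0.688, limma). The elongation factor Eef2 differed by -0.11 and the translationally controlled tumour protein Tpt1 by 0.31.

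Ribosome assembly factors lay on both sides of 0. Of 39 tested, 22 had a difference above 0 and 17 below, with a median of 0.06, beside 0.06 over all tested probes. The nuclear export adaptor Nmd3 had the lowest, -0.61, but its controls ranged from -1.02 to 0.80. The snoRNP protein Gar1 and the processome component Heatr1 differed by 0.35 each. The 11 genes for RNA polymerase I and its factors split 6 above and 5 below, with a median of 0.11, and its subunit Polr1b differed by -0.56. The 11 regulators, among them Mtor (-0.22), Larp1 (0.32) and Myc (0.26), had 9 above 0 and a median of 0.22. Of 76 tested mitochondrial ribosomal protein genes, 61 had a difference above 0, with a median of 0.12, from -0.89 for Mrps2 to 0.40 for Mrpl44. For comparison, 61.7% of the brightest probes of all genes had a difference above 0. Whether these lists differ from the cytosolic ribosomal proteins was not tested.

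Markers of other brain cells mostly had differences above 0 as well. All 12 oligodendrocyte markers had a difference above 0 (median 0.86, 4 of them at an unadjusted p below 0.05), as had 15 of 16 neuron markers (median 0.79, 8 at that p) and 8 of 9 astrocyte markers (median 0.65, 4 at that p). Over all tested probes, 2.3% were higher at an unadjusted p below 0.05 (limma). Of the brightest probes of all genes, 61.7% had a difference above 0. None of these markers passed the adjusted threshold. Summed relative signals, on the linear scale, ran from 7.23 to 13.6 in the controls and from 14.9 to 24.9 in mPGC-1α for 10 oligodendrocyte markers, from 36.9 to 59.0 and from 56.7 to 68.0 for 16 neuron markers, and from 9.89 to 14.0 and from 13.1 to 43.0 for 9 astrocyte markers. Of the 15 tested microglia markers 8 had a difference above 0 and 7 below, from -1.38 to 0.42, with a median of 0.11. Their summed signals were 185 to 221 against 218 to 231 over 10 of them. Of these 15 markers, 1 was lower at an unadjusted p below 0.05 (limma), against 4.85% of all tested probes. Cx3cr1 read 3.81, 3.28 and 3.71 in the controls and 2.38, 1.95 and 2.72 in mPGC-1α (difference -1.25, adjusted p = 0.669, limma). The Cre strain of the mPGC-1α mice is named as an allele of Cx3cr1 itself, which the controls lack. Whether that allele lowers the Cx3cr1 reading was not tested. Of the monocyte and macrophage markers, 8 of 10 had a difference below 0 (median -0.18). The medians were 0.00 for 5 neutrophil, 0.26 for 7 lymphocyte, 0.24 for 5 erythrocyte and 0.22 for 8 endothelial and mural genes, where Rgs5 was never well above background. Among these 8, 1 was higher at an unadjusted p below 0.05 (limma). The part of these cells in the levels of the ribosomal protein genes was not tested.

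**Figure D5:**
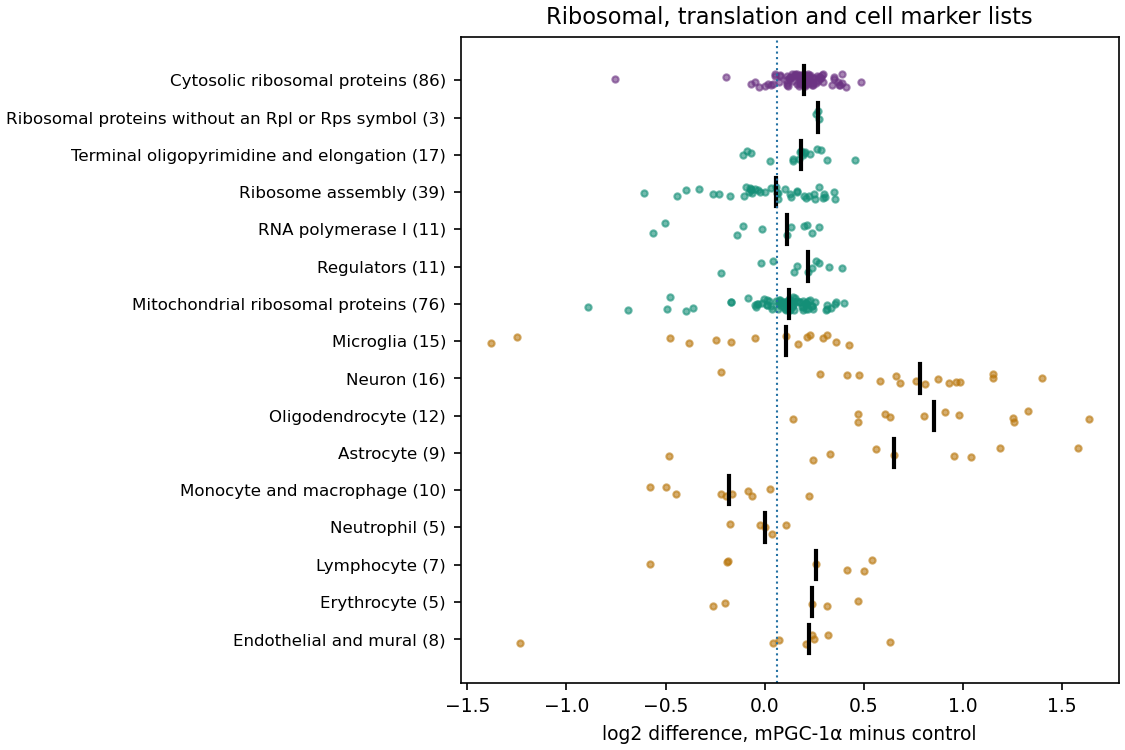
Points are the log2 differences, mPGC-1α minus control (horizontal axis), of the tested genes of each list (rows, number tested in brackets); black bars are list medians and the dotted line is the median of all tested probes, 0.06. The ribosomal protein genes gather around 0.20, ribosome assembly factors spread on both sides of 0, and neuron, oligodendrocyte and astrocyte markers reach medians of 0.79, 0.86 and 0.65.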

How the data were processed

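Per the file headers, the deposited scanner files hold linear intensity values per spot from Agilent Feature Extraction 11.5.1.1, with 1 green channel; the labels name Cy3 in one field and Cy5 in another. For 46731 of 56605 probes the deposited series matrix gives the authors' GeneSpring-normalized log2 values. Control spots and spots marked as outliers were left out, spots of a probe were averaged, and log2 processed signal minus the 75th percentile of each array over all spots that are not controls was tested in R 4.3.3 with limma 3.58.1 (lmFit, eBayes with trend, group only, two-sided). Tests were run on probes that stood well above background on each unmarked array of either group, with at least 2 values per group. Genes were named by RefSeq accession (33767 probes) and read on their brightest tested probe. Named genes were up to 8 higher and 8 lower with the smallest p, the paralog pairs, Rplp0, Rplp1, Rplp2, Rpsa, Rps6, Rps27a and Rps19bp1, and up to 5 genes whose probes disagreed in sign. The genes and lists were chosen with earlier results of these data known. The fit was tested on simulated data. Samples with the same replicate number deviated together (r = 0.247, 0.224 and 0.171; -0.337 to 0.035 otherwise, over all probes), so the number was also used as a block. Over the ribosomal protein genes alone, r was 0.406, 0.0258 and 0.449 for the same number and -0.672 to 0.502 otherwise. Precision is limited by the number of arrays. Alternatives covered normalization, filters, marked spots, blocks and leaving out each array.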

Additional observations from a re-analysis of the deposited data

How the results depend on the processing

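No setting called any ribosomal protein gene at an adjusted p below 0.05. The median difference of these genes minus that of all tested probes turned from above to below 0 under quantile normalization (-0.084), normexp with quantile normalization (-0.047) and the series matrix (-0.058). The counts of genes whose groups did not overlap were 4 in the series matrix (5.06%, against 11.2% of all probes), 1 under quantile normalization (1.92% against 10.1%), 1 with normexp (1.92% against 9.82%) and 2 with marked spots kept (2.27% against 11%), and the replicate block gave 1 gene at an unadjusted p below 0.05. The block changed no other call. Leaving out single arrays gave median differences from 0.043 to 0.31, 0.043 to 0.23 relative to all probes, 0 to 9 genes at that p and 1 to 22 genes without overlap, where all probes gave 15.98% to 43.8%. The 9 and the 22 came without control array 2 (22 were 39.3% of 56 genes, against 43.8% of all probes) and 14 without mPGC-1α array 1 (21.9% against 17.2%). The 9 were of 77 tested genes, 8 higher and 1 lower, against 10.1% of all probes higher and 11.2% lower. The 75th percentile over unmarked probes and the marked spots in the paralog ratios were chosen after seeing the data; the first gave a median of 0.27, against 0.15 over all probes.

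Among the named genes and paralog pairs, the sign turned as follows, and the causes were not tested. Signs also turned in genes outside this list. Above 0 were 81 of 86 genes under 75th percentile scaling, 52 of 86 under quantile normalization, 54 of 86 with normexp and 45 of 79 in the series matrix. Named genes not tested in the series matrix, such as Rpl10l, Rpl27, Rplp1 and Rps15a, are not listed for it. Quantile normalization gave Rpl10 -0.022, Rpl27 -0.10, Rpl36al -0.22, Rplp1 -0.17, Rps4x -0.0093, Rps23rg1 0.072 and Rps27a 0.064. With normexp, Rpl10 was -0.071, Rpl27 -0.034, Rpl36al -0.16, Rplp1 -0.19, Rplp2 -0.032, Rps27 -0.012, Rps6 -0.022, Rps23rg1 0.042 and Rps27a 0.071. In the series matrix, Rpl36al was -0.0057, Rpl7 -0.0080, Rplp2 -0.0011, Rps16 -0.0019, Rps27 -0.013, Rps23rg1 0.022, Rps27a 0.033 and the Rpl10l to Rpl10 ratio -0.12. The mean of all probes gave Rpl36al -0.044, Rps27 -0.054 and Rps23rg1 0.028. The percentile over unmarked probes gave Rpl36al -0.029, Rps23rg1 0.046, Rps27a 0.064 and Rps4l 0.028. With marked spots kept, the Rpl10l to Rpl10 ratio was -0.18 and that of Rpl22l1 to Rpl22 -0.050. Over the sets without 1 array, the range was -0.24 to 0.25 for Rpl36al, -0.0090 to 0.34 for Rpl39, -0.17 to 0.11 for Rps23rg1, -0.32 to 0.13 for Rps27a, -0.18 to 0.15 for Rps4l, -0.11 to 0.088 for Rpl22l1 to Rpl22 and -0.21 to 0.69 for Rpl39l to Rpl39.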
